A study of Rattus norvegicus with 8 samples.

Results

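The 10 genes followed here belong to the cartilage program: the transcription factors Sox9, Sox5, Sox6 and Runx2, the aggregating proteoglycans Acan (aggrecan) and Vcan (versican), the link protein Hapln1, the hyaluronan receptor Cd44, and the bridging matrix proteins Comp (cartilage oligomeric matrix protein) and Matn2 (matrilin 2). They were taken by name. All 10 of 10 had a named row in the authors' table, each had a single row among the 32883 genes of the count table, and all 10 were among the 13250 genes that passed the filter on low counts. RNA was sequenced from primary nucleus pulposus (NP) cells, the cells of the gelatinous centre of the intervertebral disc, taken from adult Sprague Dawley rats. Both groups were grown in DMEM with fetal bovine serum, and both were transduced with a lentivirus and kept in puromycin. In 4 libraries (Sirt6-KD, S5 to S8) the virus carried a mixture of short hairpin RNAs against Sirt6, which encodes a nuclear NAD-dependent deacylase, and in the other 4 (Sirt6-Ctrl, S1 to S4) it carried a control hairpin. The cells came from 4 rats, and knockdown cells were set against controls of their own, but the labels do not tie a library of one group to a library of the other, so the groups were compared without pairing.

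SOX9 is the master transcription factor of cartilage, and SOX5 and SOX6 act beside it on the genes of the cartilage matrix, whereas RUNX2 drives the hypertrophy of chondrocytes and the formation of bone. Aggrecan and versican each bind hyaluronan through an amino-terminal domain, the link protein HAPLN1 locks that bond, and CD44 holds hyaluronan at the cell surface. In the NP the resulting aggregates draw in water and carry the compressive load of the disc. COMP and the matrilins are oligomeric proteins that connect collagen fibrils with proteoglycans.

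The libraries held 31994838 to 40124813 reads assigned to features in Sirt6-Ctrl and 32382957 to 36600792 in Sirt6-KD. Synthetic RNA standards (spike-ins) took 2.97% to 9.80% of the counts in Sirt6-Ctrl and 2.15% to 2.47% in Sirt6-KD. Levels are given as CPM (reads of a gene scaled to the size of its library) after trimmed-mean (TMM) normalization, which sets the libraries to a common scale under the assumption that most genes do not change. Means are given with the SD over the 4 libraries of a group. A gene was called higher or lower when edgeR's quasi-likelihood test gave a Benjamini-Hochberg adjusted p under 0.05 over all rows tested and the fold change was over 1.5. Sirt6 itself stood at 47.6 to 56.4 CPM in the controls and 19.2 to 21.8 CPM after knockdown, so every knockdown library lay below every control. Of 13 NP markers examined, 7 had a named row (Krt8, Cd24, Car12, Car3, Foxf1, Pax1 and Nog), and their sum was 175 to 231 CPM in the controls and 191 to 209 CPM in the knockdown libraries. The sum hid log2 fold changes of both signs, since 6 of the 7 were negative (median of the 7, -0.98). Krt8 (-1.32, adjusted p = 0.0441, edgeR) and Car3 (-2.70, adjusted p = 0.0127, edgeR) were called lower. Car12 alone was positive (1.53, adjusted p = 0.0776, edgeR), but it was not called and its groups overlapped. There was no row of the name of Krt18, Krt19, Tbxt or Shh. Of the endothelial markers only Tek had a row, with 0 to 21 reads a library, and the 2 blood or macrophage markers with a row summed to 1.48 to 5.17 CPM over all libraries.

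Because 5 of these genes differed between the groups, the DNA just before their start sites is shown for those with an entry in RefSeq's promoter table (build GRCr8). Entries were found for 7 of the 10 genes, and Sox9, Sox5 and Matn2 are named only. Each window holds the 250 bases before an annotated start, written 5′ to 3′ on the strand of the gene. Capitals mark matches, on either strand, to the SOX core letters AACAAT or ACAAAG, the RUNX core ACCACA or the GC box GGGCGG. The first annotated start of Runx2 (chr9:23664808-23665057, plus strand) has ACCACA from 76 to 71 bases before the start. Hapln1 (chr2:22366717-22366966, plus strand) is shown because it alone holds a SOX core and a RUNX core, and they overlap: ACCACA from 128 to 123 bases and ACAAAG from 125 to 120 bases before the start. The first start of Vcan (chr2:22595956-22596205, minus strand) has a single GC box from 74 to 69 bases before it. The windows of Cd44 (chr3:109699425-109699674, minus strand) and Comp (chr16:19089549-19089798, minus strand) hold none of these letters.
Runx2: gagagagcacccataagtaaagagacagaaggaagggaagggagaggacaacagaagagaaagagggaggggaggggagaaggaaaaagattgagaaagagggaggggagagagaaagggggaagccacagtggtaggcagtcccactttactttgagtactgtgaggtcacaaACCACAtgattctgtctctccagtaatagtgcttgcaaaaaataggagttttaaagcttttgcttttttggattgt
Hapln1: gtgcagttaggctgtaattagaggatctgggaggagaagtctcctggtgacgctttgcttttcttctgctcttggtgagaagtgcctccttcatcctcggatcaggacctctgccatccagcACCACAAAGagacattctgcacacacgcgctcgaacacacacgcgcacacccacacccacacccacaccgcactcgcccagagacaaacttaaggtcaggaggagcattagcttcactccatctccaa
Vcan: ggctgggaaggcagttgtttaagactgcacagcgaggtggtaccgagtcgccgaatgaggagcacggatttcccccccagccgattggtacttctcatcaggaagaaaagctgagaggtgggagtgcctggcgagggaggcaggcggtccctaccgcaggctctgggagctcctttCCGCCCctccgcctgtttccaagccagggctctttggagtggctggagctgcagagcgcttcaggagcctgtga
Cd44: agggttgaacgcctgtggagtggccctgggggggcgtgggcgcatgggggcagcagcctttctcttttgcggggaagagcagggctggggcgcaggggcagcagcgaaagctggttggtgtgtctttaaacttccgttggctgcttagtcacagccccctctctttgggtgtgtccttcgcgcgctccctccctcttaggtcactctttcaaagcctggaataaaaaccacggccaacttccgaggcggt
Comp: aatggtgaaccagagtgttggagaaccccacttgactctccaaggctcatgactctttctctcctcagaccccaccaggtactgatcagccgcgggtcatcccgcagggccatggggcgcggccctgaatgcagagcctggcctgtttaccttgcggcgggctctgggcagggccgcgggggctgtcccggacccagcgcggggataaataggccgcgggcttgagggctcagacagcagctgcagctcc
Over all 33469 promoter windows of the same length, AACAAT was found in 10.3%, ACAAAG in 16.3%, ACCACA in 14.5% and GGGCGG in 30.5%. A match to 6 letters is a description of the sequence and not a binding site.

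Of the 10 genes, 3 were called higher in Sirt6-KD (Runx2, Vcan and Cd44), 2 were called lower (Comp and Matn2) and 5 were not called (Sox9, Sox5, Sox6, Acan and Hapln1). The same rule called 18.7% of all genes tested, 8.02% higher and 10.7% lower. In 5 of the 10 genes the 4 libraries of one group lay wholly to one side of the other 4, against 30.4% of all genes. Their median log2 fold change was 0.55, against -0.02 over everything tested. Both genes of proteins that bridge collagen and proteoglycan were lower, while the genes called higher were those of a hyaluronan-binding proteoglycan, the hyaluronan receptor and a factor of hypertrophy. Acan and Hapln1, whose proteins also bind hyaluronan, were not called (log2 fold changes -0.62 and -0.69). In bulk RNA, a smaller share of cells expressing a gene and less RNA per cell cannot be told apart.

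**Figure D1:**
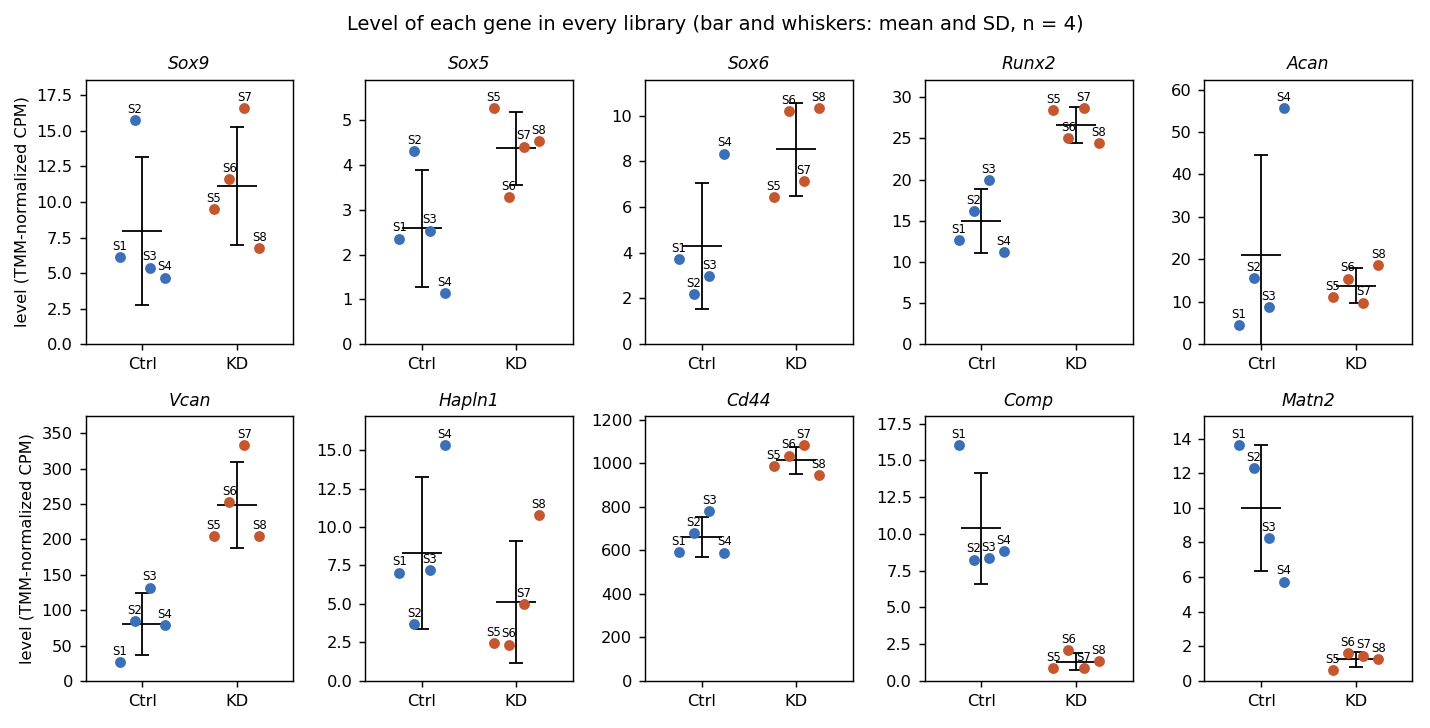
Level of each gene (TMM-normalized CPM, each panel on its own linear axis from 0) in the 4 Sirt6-Ctrl libraries (S1 to S4, blue) and the 4 Sirt6-KD libraries (S5 to S8, orange), with the group mean and SD (the lower whisker of Acan in Sirt6-Ctrl is drawn only down to 0). Comp and Matn2 lay wholly below the controls in Sirt6-KD, Runx2, Vcan and Cd44 wholly above, and the groups overlapped for the other 5 genes, with S4 far above the rest for Acan.

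Among the SOX factors, Sox9 (ENSRNOG00000002607) stood at 6.12, 15.7, 5.39 and 4.68 CPM in S1 to S4 and at 9.52, 11.6, 16.6 and 6.75 CPM in S5 to S8. The groups overlapped, since the control S2 was above every knockdown library but S7. Its log2 fold change was 0.48 (standard error 0.43, 95% confidence interval -0.48 to 1.44, adjusted p = 0.461, edgeR's quasi-likelihood test). Both a rise of more than 2-fold and a fall lay within that interval. Without S2 the log2 fold change was 1.06 and passed the threshold (adjusted p = 0.0409, edgeR), so that the absence of a call rested on that library.

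Sox5 (ENSRNOG00000027869), the partner that with SOX6 has no activation domain of its own, stood at 2.36, 4.30, 2.53 and 1.14 CPM in S1 to S4 and at 5.27, 3.29, 4.41 and 4.53 CPM in S5 to S8. Only the control S2 reached the range of the knockdown libraries. The log2 fold change of Sox5 was 0.76 (standard error 0.46, 95% confidence interval -0.27 to 1.79, adjusted p = 0.264, edgeR's quasi-likelihood test), and it was not called.

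Sox6 (ENSRNOG00000020514) stood at 3.74, 2.20, 2.97 and 8.34 CPM in S1 to S4 and at 6.42, 10.2, 7.14 and 10.3 CPM in S5 to S8. Here it was S4 that reached the range of the knockdown libraries, while S1, S2 and S3 lay below all 4. The means were 4.31 ± 2.76 CPM in the controls and 8.52 ± 2.03 CPM after knockdown, and the log2 fold change of 0.98 (standard error 0.44, 95% confidence interval 0.016 to 1.94) did not pass the threshold (adjusted p = 0.130, edgeR's quasi-likelihood test). Without S4 it was 1.52 and passed (adjusted p = 0.0224, edgeR). All 3 SOX factors thus had positive log2 fold changes, none was called, and in each of them 1 control library overlapped the knockdown range.

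Runx2 (ENSRNOG00000020193) stood at 12.6, 16.1, 19.9 and 11.2 CPM in S1 to S4 and at 28.4, 25.1, 28.7 and 24.4 CPM in S5 to S8. Every knockdown library was above every control, and the knockdown libraries lay close together, with a coefficient of variation of 8.29% against 26.1% in Sirt6-Ctrl. From a control mean of 15.0 ± 3.91 CPM it rose to 26.6 ± 2.21 CPM. The log2 fold change was 0.83 (standard error 0.21, 95% confidence interval 0.36 to 1.30, adjusted p = 0.0208, edgeR's quasi-likelihood test). The direction was the same with each library left out, but the adjusted p passed 0.05 without S1 (0.0566), S5 (0.0661), S6 (0.0587) or S7 (0.0686) in the same edgeR test, with log2 fold changes from 0.79 to 0.86.

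Acan (ENSRNOG00000028992), the major proteoglycan of the NP, was the most uneven of the 10 genes among the controls. It stood at 4.54, 15.5, 8.83 and 55.7 CPM in S1 to S4 and at 11.1, 15.5, 9.80 and 18.7 CPM in S5 to S8. S4 was 12.3-fold above S1, which was the lowest of all 8 libraries, while the knockdown libraries spanned 1.91-fold. Acan had 158 to 2296 reads a library, and its coefficient of variation in Sirt6-Ctrl was 111%, with 3.51% given by counting alone. The control mean was 21.1 ± 23.5 CPM and the knockdown mean 13.8 ± 4.08 CPM. The log2 fold change was -0.62 (standard error 0.63, 95% confidence interval -2.02 to 0.78, adjusted p = 0.520, edgeR's quasi-likelihood test). Without S4 the sign turned, to 0.52 (adjusted p = 0.398, edgeR), so these libraries gave no direction for Acan.

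Vcan (ENSRNOG00000029212), the proteoglycan of loose and remodelling matrix, had the largest positive log2 fold change of the 10 genes. It stood at 26.3, 84.7, 132 and 78.7 CPM in S1 to S4 and at 205, 253, 334 and 204 CPM in S5 to S8. All knockdown libraries were above the highest control, S3. The mean rose 3.09-fold, to 249 ± 61.1 CPM from 80.4 ± 43.2 CPM in the controls. The log2 fold change was 1.63 (standard error 0.39, 95% confidence interval 0.77 to 2.49, adjusted p = 0.0169, edgeR's quasi-likelihood test). This log2 fold change was above that of 96.1% of the genes tested. Without S7, the highest library, it was 1.45 and just missed the threshold (adjusted p = 0.0533, edgeR).

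Hapln1 (ENSRNOG00000032002) stood at 7.04, 3.68, 7.18 and 15.3 CPM in S1 to S4 and at 2.43, 2.36, 5.01 and 10.8 CPM in S5 to S8. The knockdown libraries spanned 4.57-fold, and S8 was above 3 of the 4 controls. The log2 fold change was -0.69 (standard error 0.57, 95% confidence interval -1.96 to 0.57, adjusted p = 0.414, edgeR's quasi-likelihood test), and Hapln1 was not called. It was -1.32 without S8 and -0.22 without S4 and passed in neither (adjusted p = 0.138 and 0.820, edgeR).

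Cd44 (ENSRNOG00000006094) stood at 592, 680, 781 and 590 CPM in S1 to S4 and at 987, 1035, 1085 and 945 CPM in S5 to S8. It had the smallest relative spread of the 10 genes in both groups, and the groups did not overlap. Its mean rose 1.53-fold, to 1013 ± 60.5 CPM from a control mean of 661 ± 90.4 CPM. Its log2 fold change was 0.62 (standard error 0.14, 95% confidence interval 0.31 to 0.92, adjusted p = 0.0136, edgeR's quasi-likelihood test). The change lay just past the 1.5-fold limit, so that it fell short of it without S4 (log2 fold change 0.56, adjusted p = 0.0243, edgeR) and missed the adjusted p without S6 (0.0530) or S7 (0.0516).

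Comp (ENSRNOG00000048472) and Matn2 (ENSRNOG00000006060) were the genes that fell. Comp stood at 16.1, 8.26, 8.33 and 8.82 CPM in S1 to S4 and at 0.868, 2.09, 0.860 and 1.33 CPM in S5 to S8. In reads this was 267 to 559 a library in Sirt6-Ctrl and 30 to 70 in Sirt6-KD, so that the highest knockdown library was far below the lowest control. Its mean was 8.05-fold lower, and only 0.792% of all genes had an absolute log2 fold change at least as large as the -3.01 of Comp. The fall did not rest on the high control S1, since the log2 fold change was -3.34 to -2.69 over the fits that dropped 1 library (adjusted p from 0.00151 to 0.0167, edgeR's quasi-likelihood test).

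Matn2 stood at 13.6, 12.3, 8.27 and 5.74 CPM in S1 to S4 and at 0.637, 1.61, 1.46 and 1.24 CPM in S5 to S8. The reads were 237 to 475 a library in Sirt6-Ctrl and 22 to 56 in Sirt6-KD, and the lowest control, S4, was more than 3-fold above the highest knockdown library. Its mean was 9.99 ± 3.64 CPM in the controls and 8.07-fold lower, at 1.24 ± 0.429 CPM, after knockdown. The log2 fold change was -3.01 (standard error 0.44, 95% confidence interval -3.97 to -2.04, adjusted p = 0.00316, edgeR's quasi-likelihood test). Comp and Matn2 therefore had nearly the same log2 fold change, but their order among the controls differed: S4 was second highest for Comp and lowest for Matn2. Over the fits that dropped 1 library, Matn2 was at -3.20 to -2.79.

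**Figure D2:**
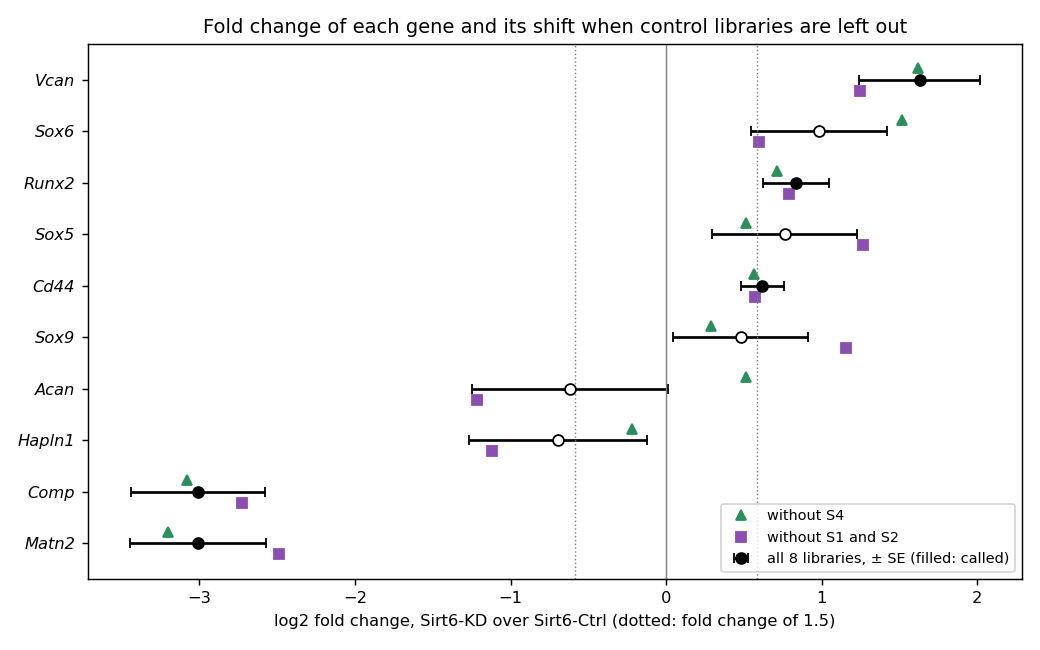
Log2 fold change of each gene, Sirt6-KD over Sirt6-Ctrl, from all 8 libraries (circles with standard error, filled where called), without S4 (triangles) and without S1 and S2 (squares), with dotted lines at a fold change of 1.5. Comp and Matn2 stayed below -2 in each set, whereas Acan moved from -0.62 to 0.52 without S4.

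The level of a library against the spike-ins gives another scale, on which the sign of some changes is different. When each library was scaled by its spike-in reads, the median over all genes moved up to 0.94, and 20 (0.151%) were called higher and 4 (0.0302%) lower in place of 1063 and 1416. By edgeR none of the 10 genes was called on that scale, although 6 were higher and 2 lower at an unadjusted p under 0.05, a rule that took 31.8% of all genes as higher and 0.332% as lower on that scale. Sirt6 itself, the gene knocked down, was not called on that scale either, with a log2 fold change of -0.36 (adjusted p = 0.567, edgeR). Comp then had a log2 fold change of -1.98 (adjusted p = 0.0890, edgeR) and Matn2 one of -1.83 (adjusted p = 0.0933, edgeR), so both stayed negative. Vcan had 2.43 (adjusted p = 0.0761, edgeR), Runx2 1.78 (0.0830) and Cd44 1.56 (0.0829), each above the median of all genes. Sox9, Sox5 and Sox6 also lay above it, at 1.81, 1.99 and 1.72, while Acan and Hapln1 lay below it, at 0.034 and 0.058. S1 and S2 were the controls with the largest spike-in shares, 6.27% and 9.80%. Without both of them Comp (-2.73), Matn2 (-2.49) and Vcan (1.25) were still called on the TMM scale, whereas Runx2 missed the adjusted p (0.0591, edgeR) and Cd44 the fold limit (log2 fold change 0.57).

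Ratios between genes inside a library do not depend on the scale of the library, and are given as log2 of the ratio of reads without a test. Acan over Vcan lay between -3.90 and -0.50 in the controls and between -5.09 and -3.45 after knockdown, a difference of means of -1.84. The groups overlapped through S3, the control with the most Vcan. Comp over Acan lay between -2.66 and 1.82 in the controls and between -3.80 and -2.88 after knockdown, so that every knockdown library was below every control. For the factors, Sox9 over Runx2 differed by -0.28 and Sox5 over Sox9 by 0.30, and Hapln1 over Acan differed by -0.77, with overlapping groups in each. The difference in Sox9 over Runx2 had no stable sign, since it was 0.062 without S2.

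**Figure D3:**
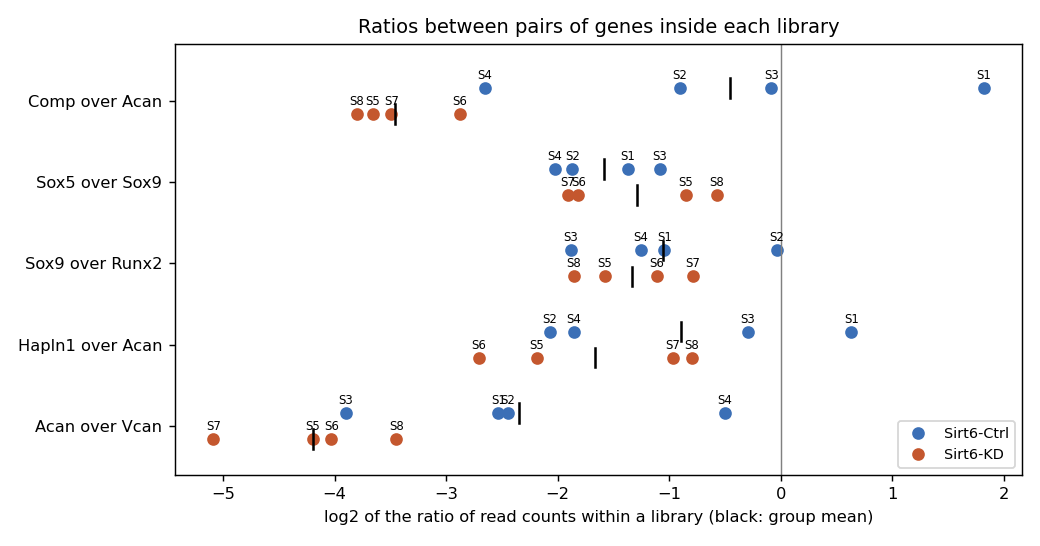
Log2 ratio of reads between pairs of genes inside each of the 8 libraries (blue: Sirt6-Ctrl, orange: Sirt6-KD, black: group mean). Comp over Acan separated the groups, and in Acan over Vcan the control S3, at -3.90, lay among the knockdown libraries.

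Part of the spread inside the groups followed the library. S4 and S8 were the highest of their groups for Acan, Hapln1 and Sox6, and the lowest of their groups for Sox9, Runx2 and Cd44. Of all genes tested, 10.6% had S4 and S8 highest and 10.7% had them lowest. Of the smooth muscle or pericyte markers, 5 of 6 had a row, and Acta2, Cnn1 and Myh11 were highest in S4 and S8, whereas Des was lowest in both (96.6 and 116 CPM) and Notch3 was highest in S4 and S6. Their sum, carried by Acta2 in S4 and S8, was 167 to 1240 CPM in the controls and 270 to 775 CPM after knockdown. Acta2, a contractile actin that is also expressed by myofibroblasts, had 688 to 2589 reads in S1 to S3 and 43241 in S4, and 3215 to 4410 in S5 to S7 and 19691 in S8. Of the annulus fibrosus or tendon fibroblast markers, 6 of 7 had a row, and Col1a1, Thy1, Scx and Mkx were highest in S4 and S8, while Col1a2 was highest in S4 and S5 and Pdgfra in S3 and S7. Their sum, nearly all of it Col1a1, was 13677 to 25964 CPM in the controls and 8340 to 17878 CPM after knockdown. The row of Col1a2 held only 31 to 107 reads a library, against 290419 to 1040124 for Col1a1. The reason was not tested, so the order of Col1a2 among the libraries says little. The labels do not say whether S4 and S8 came from the same rat, and the part of these markers in the levels of Acan, Hapln1 and Sox6 was not tested.

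**Figure D4:**
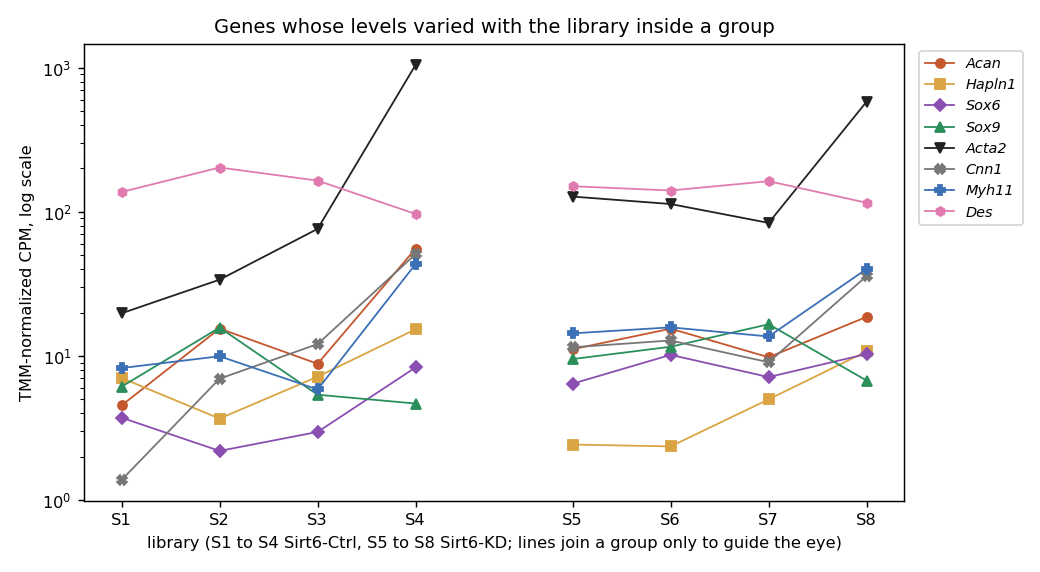
TMM-normalized CPM on a log axis of Acan, Hapln1, Sox6 and Sox9 and of the smooth muscle markers Acta2, Cnn1, Myh11 and Des (Notch3, at 0 in S1, is not drawn) in the 8 libraries, with lines that join a group only to guide the eye. S4 and S8 were highest in their groups for Acan, Hapln1, Sox6, Acta2, Cnn1 and Myh11, and lowest for Sox9 and Des.

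For each gene called, the genes whose log2 CPM followed it most closely over the 8 libraries are given as a description, since these points share the difference between the groups. Runx2 was closest to its own relative Runx1 (Pearson's r = 0.994), then to Trim3 (0.993) and the AP-1 subunit gene Fosl1 (0.992). Vcan was closest to Adamts7 (0.994), which encodes a metalloprotease that cleaves COMP, and to Ptpn12 (0.993) and B3galnt1 (0.988). Cd44 was closest to Ndst3 (0.997), Dusp6 (0.994) and N4bp1 (0.994). On the falling side, Comp was closest to Psmc6 (0.995), Sfswap (0.992) and Slc25a46 (0.988), and Matn2 to Ppid (0.991), Kdm1a (0.990) and L3mbtl2 (0.985).

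Around these 10 genes, 6 lists held 111 relatives, targets and partners, of which 82 were tested. The lists were chosen with earlier results of these data known, so their counts are a description only. Of these, 16 were called higher and 6 lower, where the rule called 8.02% and 10.7% of all genes. Their median log2 fold change was 0.22. With spike-in scaling 1 of them was called. The medians of the first 3 lists below had no stable side of the median of all genes, while those of the hyaluronan genes, the CD44 partners and the proteases stayed above it in every setting run. Among the family relatives, 1 of 12 tested was called higher and 1 lower, and their median was 0.11 above that of all genes, or 0.15 below it with spike-in scaling. Runx1, the other RUNX factor with a call, rose with Runx2, by a log2 fold change of 0.96 (adjusted p = 0.0102, edgeR). Matn4 had -2.38 (adjusted p = 0.0288, edgeR), a call that was lost without S1, S5, S6, S7 or S8 (adjusted p from 0.0517 to 0.0826, edgeR).

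SOX9 and cartilage program genes held 3 of 17 called higher and 2 lower, where the rule called 8.02% and 10.7% of all genes. Their median was -0.28, and there was no row named Col2a1. Col9a1, a chain of the cartilage collagen IX, had at most 2 reads in each control library and 13 to 31 after knockdown, too few for a stable fold. Chst11, a chondroitin sulfotransferase, had a log2 fold change of 1.25 (adjusted p = 0.0277, edgeR) and the BMP receptor Bmpr1b one of 1.13 (adjusted p = 0.0433, edgeR). Lower were Nkx3-2, a repressor that holds back RUNX2 in cartilage, with -1.42 (adjusted p = 0.00897, edgeR), and the collagen chain Col11a2, with -1.11 (adjusted p = 0.0277, edgeR). Among these, Nkx3-2 kept its call with any 1 library left out. Chst11 lost it without S1 or any knockdown library (adjusted p from 0.0622 to 0.0875, edgeR), Bmpr1b without any library but S3 (0.0703 to 0.116), Col11a2 without any but S2 or S3 (0.0510 to 0.0893), and Col9a1 without any knockdown library (0.0552 to 0.0724). The median of the list turned to 0.47 with limma-voom and to 0.09 without S4, so its sign was not stable.

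The RUNX2 and hypertrophic or osteogenic genes held 1 of 14 called higher and 1 lower, near the 8.02% and 10.7% of all genes. Their median was 0.00091, and it was 0.41 without S4 and -0.09 without S3. Vegfa, the vascular growth factor, had a log2 fold change of 0.94 (adjusted p = 0.0478, edgeR), and Alpl, the alkaline phosphatase of mineralizing cells, one of -2.92 (adjusted p = 0.0105, edgeR). Alpl kept its call with any 1 library left out, whereas Vegfa lost it without any but S3 or S4 (adjusted p from 0.0544 to 0.116, edgeR). Mmp13, the collagenase of hypertrophic cartilage, had 2.25 but was not called (adjusted p = 0.0550, edgeR). It stood at 106, 375, 1120 and 97.0 CPM in S5 to S8. Of these, S5 and S8 lay within the control range of 39.5 to 158 CPM.

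On the hyaluronan side, 2 of 14 genes of its synthesis, receptors and breakdown were called higher and 2 lower. Over all genes the rule called 8.02% higher and 10.7% lower. Hmmr, a hyaluronan receptor also tied to mitosis, had a log2 fold change of 1.46 (adjusted p = 0.0112, edgeR), and Ugdh, which makes a sugar precursor of hyaluronan, one of 0.59 (adjusted p = 0.0272, edgeR). The lysosomal hexosaminidase Hexa had -0.86 (adjusted p = 0.0101, edgeR) and Habp4, a hyaluronan-binding protein of the cell interior, had -0.68 (adjusted p = 0.0439, edgeR). Both turned positive under spike-in scaling, at 0.26 and 0.29, but lay below the median of all genes on that scale, 0.94. With 1 library left out, Ugdh lost its call except without S3 or S4 (adjusted p from 0.0446, where the fold limit was missed, to 0.0765, edgeR), and Habp4 except without S2 or S3 (0.0817 to 0.133). The synthase Has2 had 1.24 and was not called (adjusted p = 0.121, edgeR).

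Of the partners and sheddases of CD44, 6 of 15 were called higher and 0 lower by edgeR, with a median of 0.46. The same rule called 8.02% of all genes higher and 10.7% lower. An unadjusted p under 0.05 gave 8 higher and 0 lower, where it took 16.1% and 20.4% of all genes. DESeq2 called 6 higher and limma-voom 7, where they called 11.2% and 12% of all genes higher. Both called 0 lower, where they called 12.6% and 9.88% of all genes lower. These fits used the same libraries and a list chosen with earlier results known, so they are not separate support. Ezr, which encodes ezrin and links CD44 to actin, had a log2 fold change of 1.09 (adjusted p = 0.00376, edgeR). Slc7a11, the cystine transporter that a CD44 variant stabilizes, had 1.70 (adjusted p = 0.00655, edgeR), and the scaffold Iqgap1 had 1.29 (adjusted p = 0.00713, edgeR). Moesin (Msn), Ank3 and Met were the other 3, and Msn had the highest adjusted p of the 6 (0.0488, edgeR). With 1 library left out, 4 to 7 were called higher, and 4 without S1, S5, S6 or S7. With the fold change tested against 1.5 the count was 2, and with spike-in scaling 1.

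The genes of proteases that cut aggrecan, versican, COMP and matrilins, and of their inhibitors, had the highest median of the 6 lists, 0.85. By edgeR 3 of 10 were called higher and 0 lower, where the rule called 8.02% and 10.7% of all genes. At an unadjusted p under 0.05 these were 4 higher and 0 lower, where it took 16.1% and 20.4% of all genes. DESeq2 and limma-voom each called 4 higher and 0 lower, where they called 11.2% and 12% of all genes higher. With 1 library left out, 2 to 4 were called higher, and 2 without any library but S3 or S4. The count was 1 at an adjusted p of 0.01, 0 with the fold change tested against 1.5 and 0 with spike-in scaling. Adamts7 had a log2 fold change of 1.27 (adjusted p = 0.0130, edgeR) and Adamts1, which cleaves versican, one of 1.15 (adjusted p = 0.0310, edgeR), which was lost without any library but S3 or S4 (0.0529 to 0.0782). The inhibitor Timp3 rose too, by 0.85 (adjusted p = 0.00788, edgeR). The aggrecanase genes Adamts4 and Adamts5 were not called, with log2 fold changes of 1.11 and 0.85 (adjusted p = 0.255 and 0.198, edgeR).

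**Figure D5:**
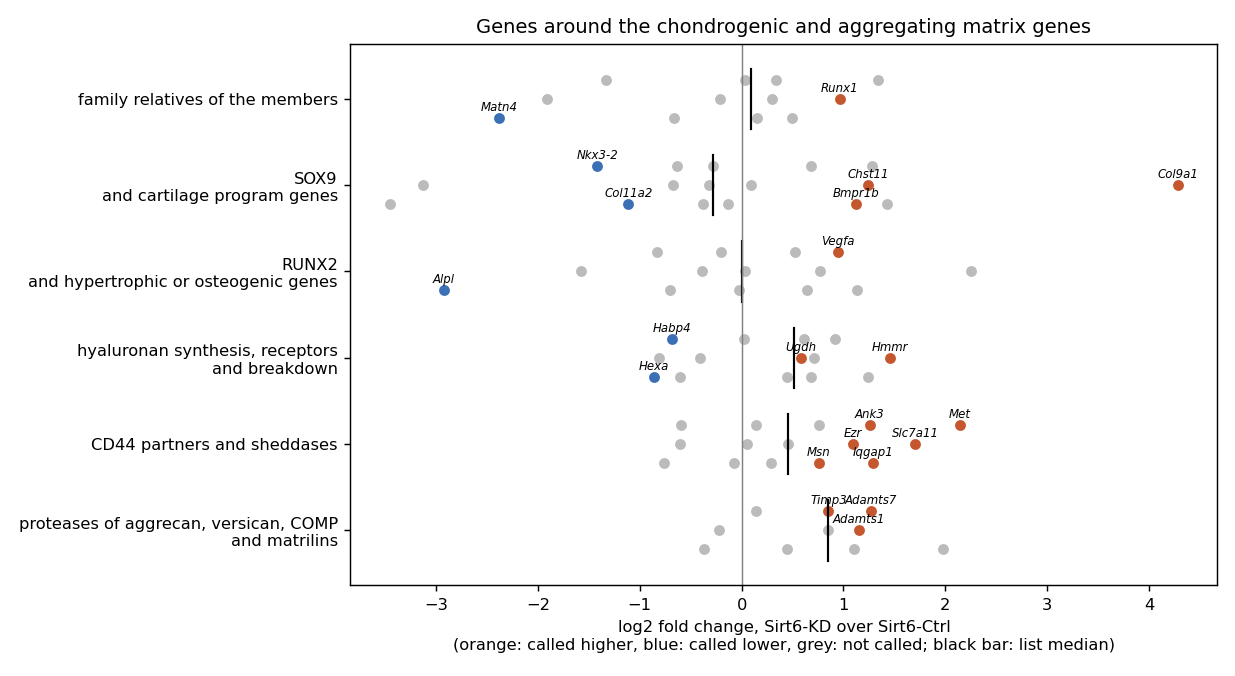
Log2 fold change, Sirt6-KD over Sirt6-Ctrl, of each tested gene in the 6 lists around the chondrogenic and aggregating matrix genes (orange: called higher, blue: called lower, grey: not called, black bar: list median). The medians run from -0.28 for SOX9 and cartilage program genes, a value that turned positive with limma-voom and without S4, to 0.85 for the proteases and their inhibitors.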

How the data were processed

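RNA-seq of cultured rat NP cells was analysed in 8 libraries, 4 Sirt6-Ctrl and 4 Sirt6-KD, grouped by their labels. The authors deposited raw read counts per Ensembl gene, with 92 spike-in rows among 32975, and a table of 13612 named genes whose values are counts divided by DESeq2 size factors (a normalized signal, read only for gene names and to check that it gives back the deposited counts). The submitters' processing notes list Trimmomatic 0.36, STAR 2.5.2b, Subread 1.5.2, featureCounts, DESeq2 and the build Rnor_6.0. Strand settings and versions of the other tools are not given in the sources used here, so overlapping and antisense genes cannot be separated.

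Counts were fitted in R 4.3.3 with edgeR 4.0.16 (filterByExpr, TMM, glmQLFit and glmQLFTest, two-sided) over 13313 rows, 63 of them spike-ins, and p-values were adjusted over all of them by the Benjamini-Hochberg method. Standard errors were the absolute log2 fold change over the square root of F, and 95% intervals used the total degrees of freedom of the test. DESeq2 1.42.0 and limma-voom (limma 3.58.1) served as alternatives. The scripts were tested on simulated data with large planted fold changes, so that test does not speak to small ones. Ratios used a pseudocount of 0.5 reads, and likeness between genes log2 CPM with a prior count of 2. Gene lengths were not used, so levels are not compared between genes. Genes were matched by the names in the deposited table, and a listed gene without a row of that name is given no value. Cemip2 was matched by its older symbol Tmem2.

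Genes were named by rule: the 10 genes, Sirt6, up to 3 called genes in each direction and list with the smallest p, and the 3 closest genes of each called gene. Col2a1, Mmp13, Has2, Adamts4, Adamts5, Msn, Ank3, Met, and the markers named by their values were named after their values were seen. The 10 genes, the lists and the alternatives were chosen with earlier results of these data known. Replicate libraries of a group correlated at 0.889 to 0.941 in Sirt6-Ctrl and 0.966 to 0.972 in Sirt6-KD, and none looked like a library deposited again. The coefficient of variation from counting covers counting error only.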

Additional observations from a re-analysis of the deposited data

Results flagged for a closer look

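In 20 groups of 4 libraries, one for each of the 10 genes in each condition, the gap between an extreme library and its nearest neighbour was set against the range of the group and judged by the critical value of Dixon's test, where chance alone gives about 1 in 20. For Sox9, S2 (15.7 CPM) was the highest Sirt6-Ctrl library by 0.870 of the range, with the other 3 at 4.68 to 6.12 CPM, and the call of Sox9 changed without it. For Comp, S1 (16.1 CPM) was the highest Sirt6-Ctrl library by 0.927 of the range, with the other 3 at 8.26 to 8.82 CPM, and the call of Comp did not change without it.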

How the results depend on the processing

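Each of the 10 fold changes and its call was read under 21 alternatives, and with the 20 other named genes this gave 630 values. Of these, 486 kept direction and call, 137 lost the call, 2 gained it and 5 changed sign. An adjusted p of 0.01, no fold limit and a test against 1.5 left the fold changes as they were. Such settings could alter a call but not a sign, and dropping the fold limit could not remove a call. Of the 10 genes, 3 were called higher: 0 with spike-in scaling, 0 when the fold change was tested against 1.5 (glmTreat), 0 at an adjusted p of 0.01, 1 without S1 and S2, and 0 to 4 with each library left out. The 2 called lower became 0 with spike-in scaling and stayed 2 with each library left out. Of the listed genes, the 16 called higher became 1, 2 and 5 and the 6 called lower 0, 1 and 1 under the first 3 of these settings, and 8 to 22 and 3 to 7 with each library left out. The changes of sign were Acan (0.034) and Hapln1 (0.058), Hexa (0.26) and Habp4 (0.29) with spike-in scaling, and Acan without S4 (0.52), within a range of -0.93 to 0.52 over libraries left out. Those with spike-in scaling lay below the median of all genes on that scale, 0.94. The causes were not tested. No alternative changed the sign of Comp (-3.34 to -1.98), Matn2 (-3.20 to -1.83), Vcan (1.25 to 2.43), Runx2 (0.71 to 1.78) or Cd44 (0.56 to 1.56). Counts of all genes called ran from 20 higher and 4 lower with spike-in scaling to 1699 and 1913 without S3, with 1063 and 1416 as reported, and limma-voom gave 1591 and 1309. No paired analysis was possible because neither labels nor columns say which libraries share a rat, although the series describes knockdown cells with controls of their own. With 4 libraries a group the interval of Acan was wide (-2.02 to 0.78). Col9a1, with at most 2 reads in a control library, had too few reads there for a stable fold.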
